A study of Mus musculus with 8 samples.

Results

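The 8 genes Srebf2, Insig1, Hmgcs1, Idi1, Fdft1, Sqle, Lss and Dhcr7 of cholesterol synthesis and its control were followed across sham-operated and injured mouse kidneys. Srebf2 and Insig1 control the pathway, and the other 6 are enzymes. All 8 were taken by name from the array, with 15 of its 56605 distinct probes. For every one of the 8 genes at least 1 probe was well above background on both arrays of a group, so all 8 were among the 21264 genes tested. The members are genes of synthesis and its control, so uptake is described below from a separate list of receptors and transport proteins.

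RNA from the left kidney of 8 mice was hybridised to 1-colour arrays, 1 array for each mouse, with 4 groups of 2 mice that are named here by group and mouse number. For surgery, sham mice (1 and 4) had only a midline incision. IRI mice (30 and 34) lost the right kidney and had the left renal vessels clamped for 45 min before reperfusion, a model of ischaemia-reperfusion injury. The control-miRNA mice (1 and 5) and the mimic mice (6 and 7) had this same operation 2 days after 5 nmol of a control miRNA or of a miR-5100 mimic, in 200 µl on polyethyleneimine nanoparticles, went into the tail vein. Polyethyleneimine is a positively charged polymer used to bring nucleic acids into cells. All kidneys were taken 24 h after surgery. Strain, age and sex are not given in the sources used here. An injured kidney was also the only remaining kidney, so clamping and loss of the other kidney cannot be told apart. The study's design text says that nanoparticles were injected in all models, but names an injection only for the control-miRNA and mimic groups. Sham and IRI mice were treated here as not injected, which the sources leave unsure. On that reading, nanoparticles without injury were not among the groups.

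Cells make cholesterol from acetyl-CoA through mevalonate, isoprenoid units and squalene, and then convert lanosterol to cholesterol in a further series of steps. The pathway is switched on by SREBP2, the product of Srebf2, a transcription factor that is held in the endoplasmic reticulum with SCAP and INSIG proteins while sterols are plentiful and is released and cut to its active form when they run short. Many genes of the pathway, Insig1 and Srebf2 itself among them, are known targets of SREBP2, which works together with the factors NF-Y and SP1. In the kidney, proximal tubule cells take up lipoprotein and albumin from the filtrate, and a gain in renal cholesterol is a known feature of acute tubular injury.

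The small RNA given to the mimic mice and the regions before the start of 4 members are printed here because they are the agent tested and the sites through which these genes are commonly held to be controlled. The mature miR-5100 of the RefSeq table matched the mimic of the study's design text, and capitals mark its seed, bases 2 to 8.
mmu-miR-5100: uCGAAUCCcagcggugccucu

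RefSeq promoters of build GRCm38.p6, which run from 250 bases before to 50 bases after the start of a gene, were held for 6 of the 8 members. Both strands were searched for TCACNCCA (a core of the sterol regulatory element, the SREBP site), CCAAT (the NF-Y box) and GGGCGG (the GC box of SP1). TCACNCCA was found in 2 of the 6 members, Hmgcs1 and Srebf2, and in 4.36% of the 32851 promoters of the table. CCAAT was found in all 6, against 37.4% of all promoters, and GGGCGG in all 6, against 35.7%. The 6 genes have 8 promoters and were counted for a match in any of them, while the shares are of single promoters. Dhcr7 has 3 promoters in the table, CCAAT was in 1 of them, and another held neither CCAAT nor GGGCGG. Matches of different motifs did not overlap. The 250 bases before the start are shown for the 2 genes with a TCACNCCA match and for Idi1 and Insig1, which had the largest differences from sham. Capitals mark TCACNCCA and CCAAT on either strand, so that CCAAT on the opposite strand reads ATTGG.
Hmgcs1, chr13:119690101-119690350, plus strand: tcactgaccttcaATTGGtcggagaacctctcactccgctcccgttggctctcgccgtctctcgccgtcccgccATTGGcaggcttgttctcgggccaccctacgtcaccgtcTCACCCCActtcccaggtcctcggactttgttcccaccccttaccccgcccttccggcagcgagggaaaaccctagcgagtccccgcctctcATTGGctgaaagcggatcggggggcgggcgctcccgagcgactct
Srebf2, chr15:82147019-82147268, plus strand: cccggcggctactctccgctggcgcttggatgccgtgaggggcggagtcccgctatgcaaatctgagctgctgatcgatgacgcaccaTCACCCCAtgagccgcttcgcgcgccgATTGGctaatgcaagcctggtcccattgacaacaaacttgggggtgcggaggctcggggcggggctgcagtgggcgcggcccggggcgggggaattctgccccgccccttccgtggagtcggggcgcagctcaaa
Idi1, chr13:8885356-8885605, plus strand: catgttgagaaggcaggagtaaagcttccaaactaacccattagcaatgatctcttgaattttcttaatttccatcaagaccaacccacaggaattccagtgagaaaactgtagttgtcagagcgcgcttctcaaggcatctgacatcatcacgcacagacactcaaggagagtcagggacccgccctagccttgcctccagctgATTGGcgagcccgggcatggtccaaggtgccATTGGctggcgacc
Insig1, chr5:28071162-28071411, plus strand: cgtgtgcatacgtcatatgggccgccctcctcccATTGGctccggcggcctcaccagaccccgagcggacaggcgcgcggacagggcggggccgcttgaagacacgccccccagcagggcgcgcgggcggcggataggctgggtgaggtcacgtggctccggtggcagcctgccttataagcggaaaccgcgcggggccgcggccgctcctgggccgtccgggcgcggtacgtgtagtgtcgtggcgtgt
The TCACNCCA match lay from -137 to -130 in Hmgcs1 and from -162 to -155 in Srebf2, counted from the start. In Idi1, CCAAT matches lay from -45 to -41 and from -14 to -10, and in Insig1 the CCAAT match lay from -216 to -212. A match describes the letters and is not evidence of binding.

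A level is the log2 of a probe's processed signal minus that of the 75th percentile of its array, so a level of 0 is the brightness of that percentile. Levels are compared between groups within a gene and not between genes. Kidney identity was clear, since all 12 proximal tubule markers, all 8 markers of the loop and distal tubule and all 10 endothelial markers were well above background on every array. Per array, 53.2% to 58.8% of spots (59305 without controls) exceeded background clearly. The 75th percentile lay at 239 and 305 on the mimic arrays and between 401 and 589 on the other 6, so the mimic arrays were the dimmest. Mice of 1 group differed least in sham and most in the mimic group, with an SD across genes of 0.33 and 0.67 log2 units, and of 0.39 in IRI and 0.51 in control-miRNA. Differences are given with standard errors from limma fitted across all genes, and p-values were adjusted by Benjamini-Hochberg across the 21264 genes, called under 0.05. With 2 mice in a group, the spread was pooled over the 4 groups, and the p-values measure the spread between these mice.

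After injury a few of the 8 genes were lower than in sham, and most showed no detected difference. In IRI against sham, 1 of 8 members fell, Idi1, and no member rose, while 8.81% of all genes fell and 9.47% rose. Of the members 6 of 8 did not overlap between IRI and sham mice, beside 71.8% of all genes. In control-miRNA against sham, Idi1 and Insig1 fell, 2 of 8, where 7.87% of all genes fell and 9.49% rose, and 6 of 8 did not overlap with sham, beside 68.7% of all genes. In mimic against sham, Idi1, Insig1 and Dhcr7 fell, 3 of 8, where 13.0% of all genes fell and 14.9% rose, and 4 of 8 did not overlap with sham, beside 68.7% of all genes. The median difference of the 8 genes was -0.13, -0.15 and -0.34 in these comparisons, against -0.08, -0.05 and 0.10 for all genes. The 3 comparisons use the same 2 sham mice, so they do not repeat each other independently. Idi1 was the 1 member called lower in all 3, which 4.69% of all genes were. Idi1, Insig1 and Dhcr7 had all 6 injured mice below both sham mice, which held for 17.8% of all genes.

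**Figure D1:**
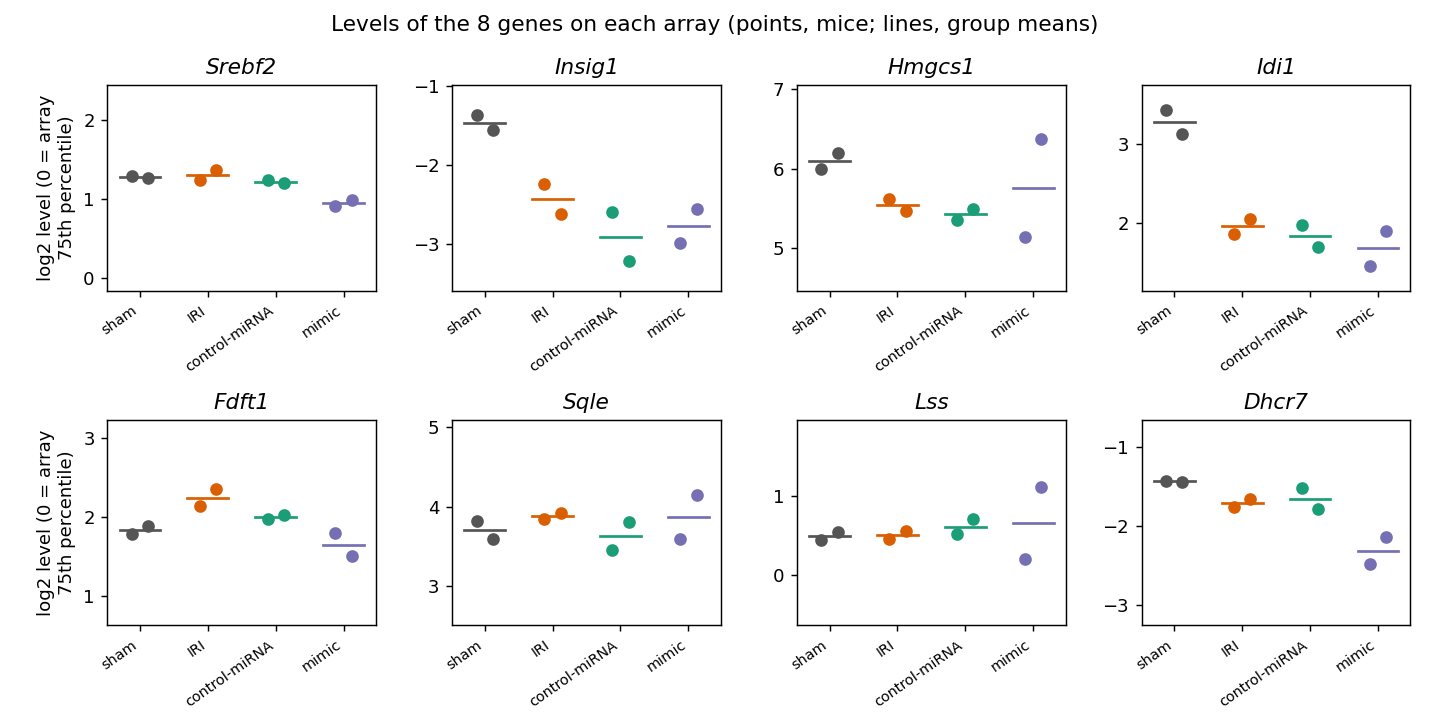
Log2 level of each of the 8 genes (vertical axis, 0 at the 75th percentile of the array) in each mouse (points) with the mean of the 2 mice (lines), by group. Every panel spans the same height; Idi1 and Insig1 lie lower in all 6 injured mice than in both sham mice, and the mimic mice lie far apart for Hmgcs1 and Lss.

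Srebf2, which encodes the factor SREBP2, was close to its sham level in the IRI kidney. Its level was 1.29 and 1.27 in the sham mice 1 and 4, 1.24 and 1.37 in the IRI mice 30 and 34, 1.24 and 1.19 in control-miRNA mice 1 and 5, and 0.91 and 0.99 in mimic mice 6 and 7. Both mimic mice lay below the other 6 mice, and the IRI and sham mice overlapped. The difference from sham was 0.03 ± 0.15 in IRI (95% interval -0.33 to 0.38), -0.06 ± 0.15 in control-miRNA mice and -0.33 ± 0.15 in mimic mice (adjusted p = 0.14, limma), so none passed the threshold. A dimmer Srebf2 probe read differently against sham, by 0.81 ± 0.25 in IRI, 0.70 ± 0.25 in control-miRNA mice and 0.07 ± 0.25 in mimic mice, where the adjusted p over all probes was 0.074, 0.11 and 0.85 in limma. The 2 probes differ in size against sham, and in sign in control-miRNA and mimic mice, and both put the mimic mice below the other injured mice. Scaling by the array median in place of the 75th percentile brought the mimic difference of Srebf2 from sham to -0.60 (adjusted p = 0.048, limma).

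Insig1, whose product holds SREBP2 back in the endoplasmic reticulum and is itself made on its command, was lower in every injured mouse. Its level was -1.36 and -1.56 in the sham mice, -2.23 and -2.62 in the IRI mice, -2.60 and -3.21 in control-miRNA and -2.99 and -2.55 in mimic mice. Sham and injured mice did not overlap. In IRI the log2 difference of -0.96 ± 0.27 had an adjusted p of 0.053 in limma and so missed the threshold. Insig1 fell 2.71-fold in control-miRNA mice (-1.44 ± 0.27, adjusted p = 0.018, limma) and 2.48-fold in mimic mice (-1.31 ± 0.27, adjusted p = 0.017, limma). The signal was dim, at 156 and 159 in sham and between 38.5 and 98.3 in the injured mice. Under the normexp background correction the differences shrank to -0.66 in IRI, -0.82 in control-miRNA mice and -0.47 in mimic mice, and the last then had an adjusted p of 0.063 in limma. That setting adds an offset of 50 to the signals, which by itself narrows the log2 differences of dim genes. In IRI, normexp brought the adjusted p to 0.030 in limma, and leaving out 1 array of the mimic or control-miRNA groups brought it to 0.042 or 0.046. The 2 calls depended on both sham mice. Without sham 1 or sham 4 neither call held, with adjusted p of 0.12 and 0.084 in control-miRNA and 0.093 and 0.081 in mimic mice in limma, and without control-miRNA 5 the former was 0.061. With the slide column as a covariate it was 0.27, at a difference of -1.06 ± 0.48. Slide column and the control-miRNA group moved together, so they cannot be told apart.

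Hmgcs1, the cytosolic HMG-CoA synthase at the entry of the mevalonate route, had a wide spread in the mimic group. Its level was 6.00 and 6.20 in the sham mice, 5.62 and 5.46 in the IRI mice, 5.35 and 5.50 in control-miRNA mice, and 5.14 and 6.37 in mimic mice 6 and 7. The IRI and control-miRNA mice lay below both sham mice, while mimic 6 was the lowest and mimic 7 the highest of all 8. The difference from sham was -0.56 ± 0.37 in IRI, -0.68 ± 0.37 in control-miRNA mice and -0.34 ± 0.37 in mimic mice, and the adjusted p in limma was 0.33, 0.25 and 0.51. The spread between mimic 6 and mimic 7 enters this error. With only the 2 groups compared in the fit, IRI and control-miRNA mice passed the threshold against sham (adjusted p = 0.046 and 0.048, limma). Without mimic 6 or without mimic 7, IRI and control-miRNA mice passed the threshold against sham, with adjusted p = 0.043 and 0.025 in limma. The mimic difference itself was 0.27 without mimic 6 and -0.96 without mimic 7, where the latter passed the threshold (adjusted p = 0.020, limma). A second, dim Hmgcs1 probe, well above background on 5 of 8 arrays, gave -1.12 ± 0.90, -1.48 ± 0.90 and -1.04 ± 0.90. In mm9 the array file places both probes on the unlocalized sequence chr13_random.

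Idi1 fell in every injured group, with the largest difference from sham of the 8, close to that of Insig1 in control-miRNA mice. This enzyme turns isopentenyl diphosphate into dimethylallyl diphosphate, the partner unit from which longer isoprenoids are built. Its level was 3.43 and 3.13 in the sham mice, 1.87 and 2.06 in the IRI mice, 1.98 and 1.70 in control-miRNA and 1.47 and 1.90 in mimic mice. The lower sham mouse stood at 3.13 and the highest injured mouse at 2.06, and the injured groups overlapped. The fall was 2.50-fold in IRI (-1.32 ± 0.22, adjusted p = 0.011), 2.72-fold in control-miRNA (-1.44 ± 0.22, adjusted p = 0.0090) and 3.03-fold in mimic mice (-1.60 ± 0.22, adjusted p = 0.0049), all in limma. The single Idi1 probe lies at chr13:8891524-8891583 in mm9 and was well above background on all 8 arrays. The IRI call rested on each of its mice, since the adjusted p in limma was 0.088 when sham 1 was left out, 0.052 for sham 4, 0.077 for IRI 30 and 0.055 for IRI 34, with differences from -1.17 to -1.47. The control-miRNA call was lost without sham 1 (adjusted p = 0.076, limma), and the mimic call held without any 1 array. With the slide column as a covariate neither the IRI nor the control-miRNA call held (adjusted p = 0.14 and 0.12, limma), with differences of -1.34 ± 0.42 and -1.47 ± 0.42. These differences were no smaller than without the covariate, and their errors were larger. Slide column and these groups moved together, so they cannot be told apart.

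**Figure D2:**
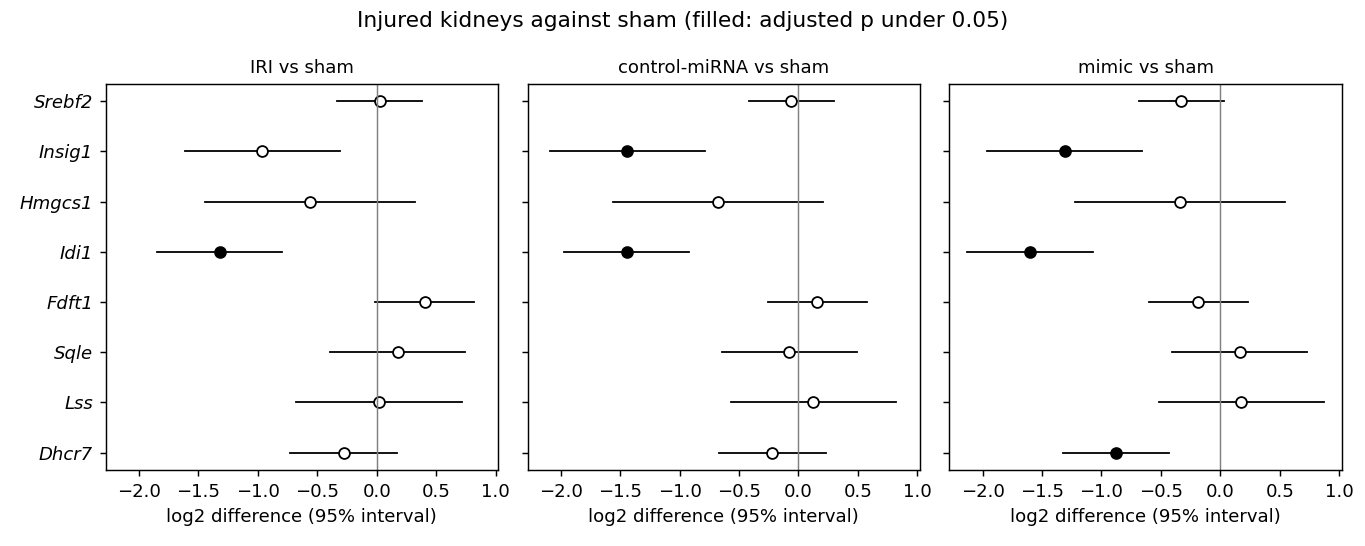
Log2 difference of each gene from sham (horizontal axis) with its 95% interval from limma, for the IRI, control-miRNA and mimic groups of 2 mice against the same 2 sham mice. Filled points have an adjusted p under 0.05: Idi1 in all 3 panels, Insig1 in the control-miRNA and mimic panels, and Dhcr7 in the mimic panel.

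With all arrays weighted alike, the 3 enzymes that make squalene and close it to the first sterol did not pass the threshold against sham. Fdft1, squalene synthase, which commits isoprenoids to sterols, had a level of 1.79 and 1.89 in the sham mice, 2.14 and 2.35 in the IRI mice, 1.97 and 2.02 in control-miRNA and 1.79 and 1.51 in mimic mice. Both IRI mice were the highest of the 8 and the mimic mice were the lowest or at the lower sham mouse. The difference from sham was 0.41 ± 0.18 in IRI (adjusted p = 0.16, limma), 0.16 ± 0.18 in control-miRNA mice and -0.19 ± 0.18 in mimic mice. With array weights the IRI difference of 0.41 passed the threshold (adjusted p = 0.043, limma). A second Fdft1 probe gave 0.52, 0.06 and -0.17 in the same order.

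Sqle, squalene epoxidase, had a level of 3.82 and 3.58 in the sham mice, 3.84 and 3.91 in the IRI mice, 3.45 and 3.80 in control-miRNA and 3.59 and 4.15 in mimic mice. All 8 mice lay between 3.45 and 4.15, and the IRI mice were just above both sham mice. The difference from sham was 0.18 ± 0.24 in IRI (95% interval -0.39 to 0.74), -0.08 ± 0.24 in control-miRNA mice (-0.64 to 0.49) and 0.16 ± 0.24 in mimic mice (-0.41 to 0.73), and the last was -0.11 with median scaling. The lowest of the 3 adjusted p was 0.63 in limma.

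Lss, lanosterol synthase, had a level of 0.43 and 0.54 in the sham mice, 0.45 and 0.55 in the IRI mice, 0.51 and 0.71 in control-miRNA and 0.20 and 1.12 in mimic mice. Again mimic 6 was the lowest and mimic 7 the highest of all 8 mice, as for Hmgcs1. The difference from sham was 0.02 ± 0.29 in IRI, 0.12 ± 0.29 in control-miRNA mice and 0.17 ± 0.29 in mimic mice, with the last at -0.10 under median scaling, and the lowest adjusted p was 0.67 in limma. The 95% interval in mimic mice, -0.52 to 0.87, leaves room for a change of up to 1.83-fold. The other Lss probes gave -0.66 ± 0.27 and 0.21 ± 0.20 in IRI against sham, opposite in sign, and neither passed the threshold. Without mimic 6 the mimic difference was 0.63 (adjusted p = 0.039, limma), and without mimic 7 it was -0.28.

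Dhcr7, which reduces 7-dehydrocholesterol at the end of the route to cholesterol, was low in the mimic mice. Its level was -1.43 and -1.44 in the sham mice, -1.77 and -1.66 in the IRI mice, -1.52 and -1.79 in control-miRNA and -2.49 and -2.14 in mimic mice. Both mimic mice lay below all other mice, and the IRI and control-miRNA mice overlapped each other just below sham. The fall from sham was 1.84-fold in mimic mice (-0.88 ± 0.19, adjusted p = 0.018, limma), while the difference was -0.28 ± 0.19 in IRI and -0.22 ± 0.19 in control-miRNA mice (adjusted p = 0.34 and 0.45, limma). The signal was 54.5 and 54.1 on the mimic arrays and between 118 and 186 on the others. At such signals the normexp offset of 50 by itself narrows the log2 differences. The difference in mimic mice was -0.37 under normexp (adjusted p = 0.082, limma), and the adjusted p in limma was 0.094 without sham 1, 0.11 without sham 4 and 0.059 with only the sham and mimic mice in the fit. With the brightness of the array as a covariate, none of the 3 mimic calls held, with adjusted p in limma of 0.13 for Idi1, 0.19 for Insig1 and 0.24 for Dhcr7. The differences themselves were no smaller, at -1.75 ± 0.42, -1.61 ± 0.52 and -0.90 ± 0.35, and their errors were larger. Brightness and the mimic moved together here, so they cannot be told apart.

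The choice of scale bears on the mimic comparisons. The median difference of all genes between mimic and sham was 0.10 with the 75th percentile and -0.17 with the array median as the reference. Relative to that median, which moves with the scale, the difference was -1.70 for Idi1, -1.41 for Insig1 and -0.98 for Dhcr7. Under quantile normalization the differences from sham were -1.53, -1.55 and -1.08.

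Between the injured groups no member passed the threshold. In control-miRNA against IRI 0 of 8 members and 0 of 21264 genes (0.00%) were called by limma, with 864 genes at an unadjusted p under 0.05. The widest member differences were -0.48 ± 0.27 for Insig1 and -0.25 for both Sqle and Fdft1, and the median of the 8 was -0.12 against 0.01 for all genes. Of the members 3 of 8 did not overlap between these groups, beside 32.6% of all genes. In mimic against control-miRNA 0 of 8 members and 0 genes (0.00%) were called by limma, although 7180 genes had an unadjusted p under 0.05. In mimic against IRI 0 of 8 members were called, whereas 15.4% of all genes were. Leaving out any 1 array other than mimic 6 left 0 genes called there by limma, with 4083 to 8176 genes at an unadjusted p under 0.05, while 7514 genes were called without mimic 6. The medians of the 8 were -0.05 and -0.31 in these last comparisons, against 0.07 and 0.09 for all genes.

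Dhcr7 and Fdft1 came nearest to a difference between mimic and the other injured mice. For Dhcr7 it was -0.60 ± 0.19 against IRI (95% interval -1.05 to -0.15, adjusted p = 0.066, limma) and -0.66 ± 0.19 against control-miRNA (-1.11 to -0.21, adjusted p = 0.076, limma). For Fdft1 it was -0.59 ± 0.18 against IRI (-1.01 to -0.18, adjusted p = 0.059, limma) and -0.35 ± 0.18 against control-miRNA (adjusted p = 0.21, limma). Srebf2 differed by -0.35 ± 0.15 against IRI and -0.27 ± 0.15 against control-miRNA (adjusted p = 0.13 and 0.24, limma). In all 3 genes both mimic mice lay below all 4 other injured mice. The arrays of mimic and IRI mice did not overlap for 3 of 8 members, where 67.3% of all genes did not overlap. Mimic and control-miRNA mice likewise did not overlap for 3 of 8 members, beside 59.0% of all genes. Under normexp Fdft1 and Srebf2 passed the threshold against IRI (adjusted p = 0.017 and 0.032, limma), and under median scaling Fdft1, Srebf2 and Dhcr7 did. Normexp brought Dhcr7 to -0.13 against IRI and -0.22 against control-miRNA (adjusted p = 0.51 and 0.26, limma). With array brightness as a covariate, Fdft1 stood at -0.12 against IRI and 0.02 against control-miRNA (adjusted p = 0.9996 and 0.9998, limma). The second Fdft1 probe differed by -0.68 ± 0.18 from IRI, past the threshold over all probes (adjusted p = 0.045, limma), and the first passed it without mimic 6 (-0.73, adjusted p = 0.026, limma).

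Hmgcs1, Sqle, Insig1, Idi1 and Lss overlapped between mimic mice and each of the other injured groups. Idi1 differed by -0.28 ± 0.22 from IRI (95% interval -0.81 to 0.25) and by -0.16 ± 0.22 from control-miRNA mice (-0.68 to 0.37). The corresponding differences of Insig1 were -0.35 ± 0.27 (-0.997 to 0.31) and 0.13 ± 0.27 (-0.52 to 0.78). The second turned to -0.20 under median scaling and to -0.17 under quantile normalization. The intervals leave room for changes of up to 1.75-fold in either direction for Idi1 and 2.00-fold for Insig1. For Hmgcs1 the interval against control-miRNA ran from -0.55 to 1.22. Hmgcs1 and Lss lay far apart between the 2 mimic mice. Without mimic 6, Hmgcs1 was higher in mimic mice by 0.83 than in IRI and by 0.95 than in control-miRNA mice (adjusted p = 0.023 and 0.021, limma), and Lss by 0.61 than in IRI (adjusted p = 0.041, limma). Without mimic 7 the Hmgcs1 differences were -0.40 and -0.28, short of the threshold.

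**Figure D3:**
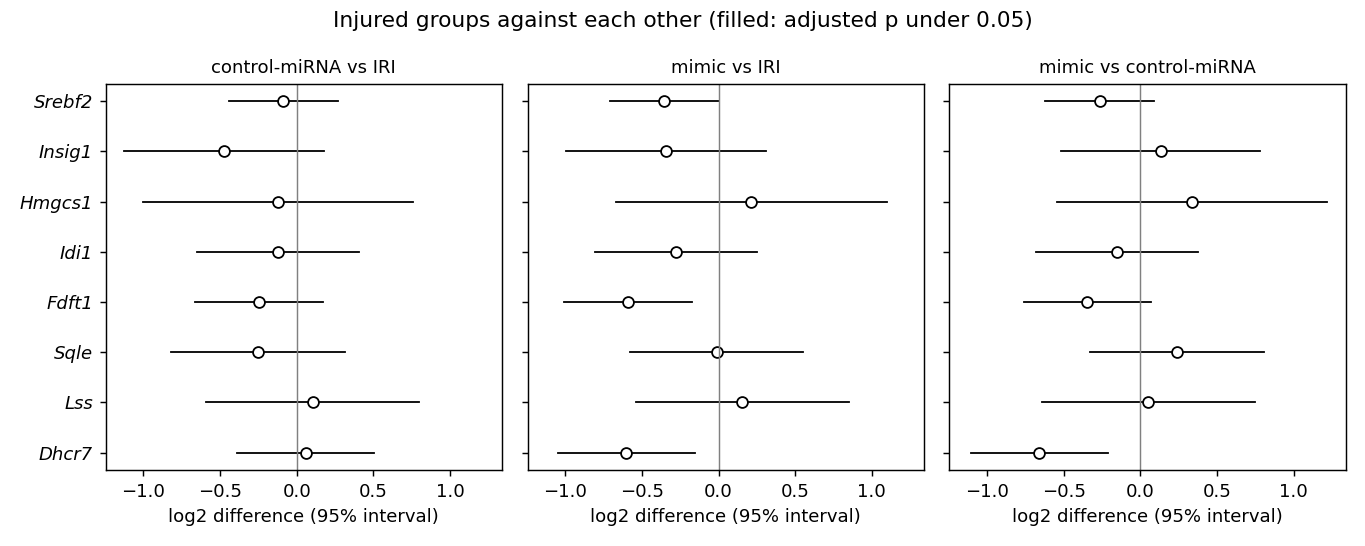
Log2 difference of each gene between the injured groups of 2 mice (horizontal axis) with its 95% interval from limma. All points are open, since none had an adjusted p under 0.05; Dhcr7 and Fdft1 lie lowest in mimic against IRI, at -0.60 and -0.59.

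Other enzymes of the pathway moved in both directions. Of all genes, 18.3%, 17.4% and 27.9% were called in IRI, control-miRNA and mimic mice against sham, and the counts of the lists that follow stand beside these shares. Of 14 other synthesis enzymes listed, 13 were tested. In IRI against sham 4 fell and 1 rose, in control-miRNA against sham 5 fell and 1 rose, and in mimic against sham 4 fell and 1 rose. Their median difference was -0.45, -0.39 and -0.57, against -0.08, -0.05 and 0.10 for all genes. Cyp51, lanosterol demethylase, fell most: its level was 3.94 and 3.73 in the sham mice, 1.15 and 1.14 in the IRI mice, 0.91 and 1.01 in control-miRNA and 1.62 and 2.56 in mimic mice. The difference was -2.69 ± 0.30 in IRI (adjusted p = 0.0028), -2.88 ± 0.30 in control-miRNA mice (0.0026) and -1.75 ± 0.30 in mimic mice (0.0089), all in limma. Both mimic mice lay above the 4 other injured mice for Cyp51, though the difference did not pass the threshold against IRI (0.94 ± 0.30, adjusted p = 0.067) or control-miRNA (1.13 ± 0.30, adjusted p = 0.070, limma).

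Msmo1, the methylsterol oxidase that acts soon after Cyp51, went the other way. Its level was 2.65 and 2.51 in the sham mice, 3.68 and 3.43 in the IRI mice, 3.43 and 3.23 in control-miRNA and 3.12 and 3.37 in mimic mice, all 6 injured mice above both sham mice. The rise was 0.97 ± 0.19, 0.75 ± 0.19 and 0.66 ± 0.19 in the 3 comparisons with sham (adjusted p = 0.016, 0.037 and 0.039, limma). With the mean of its probes it was 0.73, 0.054 and 0.52, and no call held (adjusted p = 0.081, 0.90 and 0.15, limma). Mvk, mevalonate kinase, fell in IRI (-0.82 ± 0.20, adjusted p = 0.034) and in control-miRNA mice (-0.74 ± 0.20, adjusted p = 0.047) and differed from sham by -0.03 ± 0.20 in mimic mice (limma). Its difference of mimic from IRI, 0.79 ± 0.20, passed the threshold (adjusted p = 0.046, limma), with levels of 2.26 and 2.74 in mimic against 1.65 and 1.77 in IRI mice. Mvd, the decarboxylase just before Idi1, fell by 0.86 to 1.06 in the 3 comparisons with sham, and Tm7sf2, a sterol reductase, by 0.72 to 0.99. Sc5d, which makes the substrate of Dhcr7, fell in mimic mice (-0.76 ± 0.17, adjusted p = 0.022, limma) and differed by -0.23 ± 0.17 in IRI and -0.31 ± 0.17 in control-miRNA mice, short of the threshold.

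**Figure D4:**
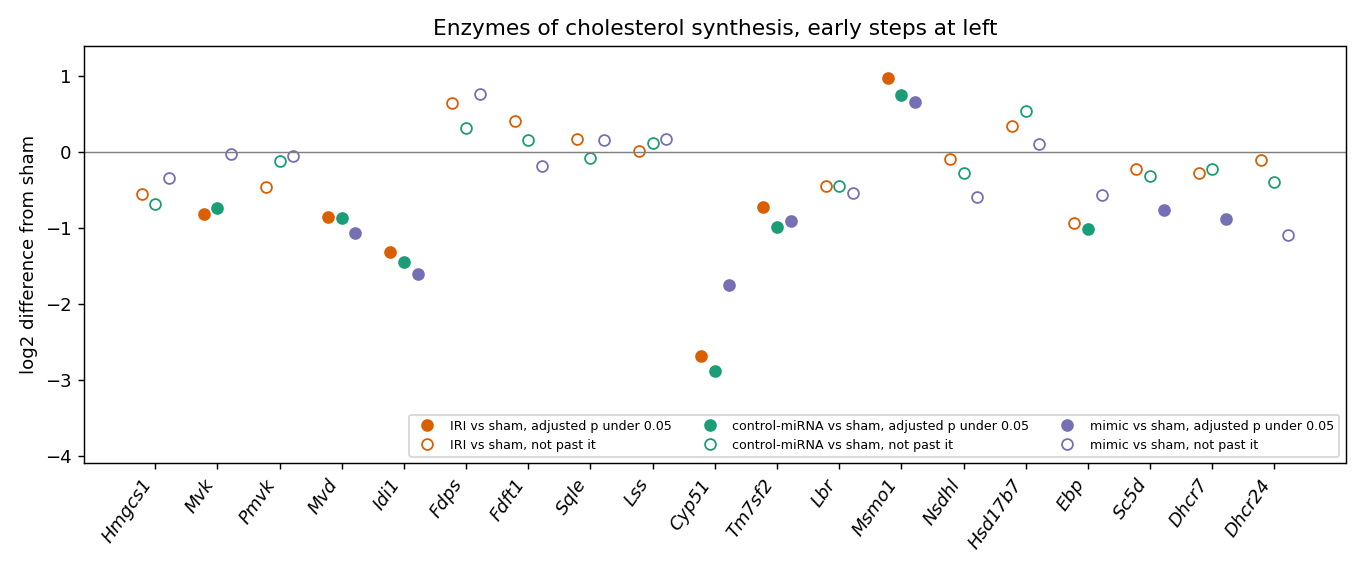
Log2 difference from sham (vertical axis) of 19 enzymes of cholesterol synthesis, ordered from the early steps at left to the late steps at right, for each injured group of 2 mice. Filled points have an adjusted p under 0.05; Idi1 and Cyp51 are the lowest, Msmo1 is raised in all 3 groups, and Fdft1, Sqle and Lss lie near 0.

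Genes that handle SREBP were followed as a further list. Insig2, the second INSIG gene, fell in mimic mice against sham (-0.97 ± 0.18, adjusted p = 0.012) and against IRI (-0.82 ± 0.18, adjusted p = 0.039, limma). Rnf139, a ubiquitin ligase of the same membrane, also fell against IRI (-1.08 ± 0.27, adjusted p = 0.047, limma). Scap, the escort of SREBP2, differed by -0.35 ± 0.17 in IRI (adjusted p = 0.19, limma). Of 6 other known SREBP targets, Acss2 and Aacs, which activate acetate and acetoacetate, fell in all 3 comparisons with sham, by 1.83 to 2.06 and by 1.81 to 2.74. Rdh11, a retinol dehydrogenase, rose in all 3, by 1.55, 1.51 and 1.32. Stard4, a sterol carrier, fell in control-miRNA mice (-0.98 ± 0.25, adjusted p = 0.043, limma). Aacs was lower in mimic than in IRI mice by 0.92 ± 0.21 (adjusted p = 0.040, limma).

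For uptake, 11 of 12 listed genes were tested, and in each comparison with sham 2 fell and 1 rose, in mimic mice close to the share of all genes called. Lrp2 (megalin) and Cubn (cubilin), the receptors of the proximal tubule, fell by 1.90 to 2.17 and by 1.25 to 1.70. Scarb1, the receptor for high-density lipoprotein, rose by 0.91 to 1.08. Lrp1 was higher in mimic than in IRI mice (1.14 ± 0.29, adjusted p = 0.046, limma). In control-miRNA mice it also stood 0.86 ± 0.29 above IRI, without a call. Mimic and control-miRNA mice differed by 0.28 ± 0.29 for Lrp1 (adjusted p = 0.51, limma). Of 12 genes of efflux, storage and oxysterol handling, 3 fell and 1 rose in IRI, 4 fell and 1 rose in control-miRNA, and 6 fell and 2 rose in mimic mice against sham. Abcg1, a cholesterol exporter, fell by 1.95 ± 0.20 in IRI and was higher in mimic than in IRI mice by 1.08 ± 0.20 (adjusted p = 0.039, limma). Cyp7b1, an oxysterol hydroxylase, fell by 4.71 ± 0.90 in IRI, and Ch25h, which makes 25-hydroxycholesterol, rose by 1.43 ± 0.38, 1.76 ± 0.38 and 2.26 ± 0.38. Mylip, a ligase that removes lipoprotein receptors, was lower in mimic than in IRI mice (-0.93 ± 0.21, adjusted p = 0.040, limma). Of 10 genes of fatty acid synthesis, the arm controlled by Srebf1, against sham 3 fell in the IRI group, 1 in the control-miRNA group and 5 in the mimic group, and Elovl6 rose in mimic mice (1.18 ± 0.22, adjusted p = 0.012, limma).

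Many of these calls rested on single arrays. Of the 19, 20 and 27 genes of these pathway lists that were called in IRI, control-miRNA and mimic mice against sham, 6, 5 and 6 stayed called in limma whichever 1 array was left out. In IRI they were Cyp51, Acss2, Aacs, Rdh11, Lrp2 and Abcg1, and in control-miRNA mice the same without Rdh11. In mimic mice Acss2, Aacs, Lrp2, Cubn and Mylip were among them. The others were lost without at least 1 of the 2 sham mice. Msmo1, for example, was lost in all 3 comparisons without sham 1 or sham 4, and Mvk in IRI was called only without mimic 6 or mimic 7. With array brightness as a covariate 0 of the 27 mimic calls held. With the mean of a gene's probes, besides Msmo1, the calls of Mvk, Tm7sf2 and Scarb1 in IRI against sham were lost. The same setting lost Mvk and Stard4 in control-miRNA against sham, Acss2 and Scarb1 in mimic against sham, and Mvk in mimic against IRI. In mimic against control-miRNA, where 0 genes were called, none of the genes named as different between mimic and IRI passed the threshold. These 7 genes were Mvk, Insig2, Rnf139, Aacs, Lrp1, Abcg1 and Mylip. Of these, 6 passed the threshold without mimic 6 and none without any other array, and Lrp1 passed it in no such fit.

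Markers of the kidney's cells moved with these groups. Of 12 proximal tubule markers, against sham 8 fell in the IRI group, 9 in the control-miRNA group and 9 in the mimic group, while Pck1 rose in the first and second of these. Their summed level was 11.33 to 11.37 in sham, 10.25 to 10.30 in IRI, 10.23 to 10.47 in control-miRNA and 10.42 to 10.70 in mimic mice. The part of this shift in the falls of Idi1, Insig1 and Dhcr7 was not tested. In whole kidney, fewer cells of a type and less RNA per cell cannot be told apart. All 8 tubular injury markers rose in each injured group, from a summed level of 7.30 to 7.47 in sham to at least 10.28. Of 10 endothelial markers 7 were called higher in mimic than in IRI mice, beside 2095 of 21264 genes called higher and 1189 lower. The summed level of the 10 was 4.66 to 5.08 in mimic and 3.86 to 3.92 in IRI mice. With array brightness or slide column as a covariate, or only the 2 groups in the fit, 0 genes were called there. The part of these markers in the mimic differences of Dhcr7 and Fdft1 was not tested. The loop and distal list had 4 of 8 markers lower in IRI and in mimic mice and 3 of 8 in control-miRNA mice, with summed levels of 7.54 to 8.18, 7.53 to 7.57 and 8.19 to 8.23 and of 8.09 to 8.33 in sham. Of 8 tested leukocyte markers 4 rose in each injured group, Cd14, Cd68, S100a8 and S100a9. Csf1r and Adgre1 fell in IRI mice, and Csf1r fell in the other injured groups. The macrophage markers Cd68, Csf1r and Adgre1 thus moved in opposite directions. The summed level of the leukocyte list was 4.14 to 4.49 in sham and 4.61 to 5.01 in injured mice. Of 9 adrenal cortex markers 4 or 5 were well above background on each array, and Cyp11a1, Cyp11b1, Cyp11b2 and Mc2r were on none. Hsd3b1 fell in each injured group, to a signal not well above background in all but mimic 7, and Star rose from a signal not well above background in sham, and their part in the results was not tested. The summed adrenal level was 0.33 to 0.47 in sham, -0.49 to -0.20 in IRI, -0.33 to -0.23 in control-miRNA and 0.17 to 0.33 in mimic mice over all 9 genes of the list. Of 8 hepatocyte markers 6 were well above background on each array, at summed levels of 6.52 to 6.56 in sham and 4.28 to 6.74 in injured mice. They moved in opposite directions. In IRI, control-miRNA and mimic mice against sham, Fgb rose (7.20, 5.70 and 3.88). Ttr (-2.10, -1.86 and -2.80) and Apoa2 (-1.12, -1.10 and -1.11) fell, as did Tat in control-miRNA mice (-0.73). Of 7 fat markers 2 were well above background in sham and 2 to 5 in injured mice, at summed levels of -0.88 to -0.75 and 0.62 to 2.13, and Adipoq and Ucp1 were on none. Only 2 of the 7, Cidec and Lep, were tested. Cidec rose by 4.49, 5.27 and 3.79 in IRI, control-miRNA and mimic mice against sham, while Lep lay lower than in sham and was not called.

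The 8 genes did not move as a block across mice. Each was set against the mean of the other 7 over the 8 arrays, which share injury, scaling and brightness. Pearson's r was 0.81 for Idi1, 0.78 for Insig1, 0.70 for Dhcr7, 0.63 for Hmgcs1 and 0.60 for Srebf2, while Sqle, Lss and Fdft1 had 0.10, 0.09 and -0.16. The centred mean of the 8 was highest in sham (0.35 and 0.30), near 0 in IRI mice (0.00 and 0.03) and mimic 7 (0.02), at -0.10 and -0.16 in control-miRNA mice, and lowest in mimic 6 (-0.44). Among 14638 named genes, the 8 whose levels over the 8 arrays were most like this mean were Atp5j (r = 0.98), Alcam, Hars2, Usp30, Aifm1, Auh, Cox7b and Rbbp4 (r = 0.97). Atp5j, a subunit of ATP synthase, had 6.52 and 6.56 in the sham mice and 6.06 and 6.21 in the IRI mice. Its level was 6.05 and 6.02 in control-miRNA and 5.56 and 6.10 in mimic mice. Atp5j was picked for its likeness to the mean, so its lowest level in mimic 6 follows from that choice.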

How the data were processed

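Total RNA of 30 mg of left kidney from each of 8 mice was labelled with Cy3 and hybridised to 1 Agilent array per mouse, per the labels' protocols. The deposited scanner files come from Agilent Feature Extraction, version 12.0.3.1 according to the submitters' processing notes. They hold a processed intensity per spot, background-subtracted and detrended within the array, per the file headers, with mean and background intensity and flags of other quality measures. The authors' deposited table of the whole series gives each probe as a linear ratio, which from its values is relative to the probe's median, with the scaling between arrays not given in the sources used here. It served as an alternative only. All value columns were mapped to a sample, with 0 unused.

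Control and outlier spots were left out, and no spot was saturated. Levels are log2 processed intensity minus each array's 75th percentile, averaged over the spots of a probe. Of 56605 probes, 32218 were kept, those with both arrays of some group well above background, and a gene was read from its brightest kept probe. RefSeq tables named 33767 probes by accession, 9866 by current and 310 by older symbol, and 12662 kept the file's name. limma 3.58.1 in R 4.3.3 (lmFit, eBayes) fitted a mean per group on 8 arrays, with 6.84 degrees of freedom after moderation, Benjamini-Hochberg adjustment over 21264 genes and a threshold of 0.05. It was tried on simulated data.

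The members and gene lists were chosen with earlier results of these data known. Named genes are the 8 members, up to 4 genes of smallest p in each cholesterol or lipid list per comparison, and the 8 most like the members' mean. Some genes of the pathway are not reported here. All arrays shared 1 slide and 1 scan. Sham and IRI arrays lay in slide row 1, and the control-miRNA and mimic arrays in row 2. With sham and IRI mice taken as not injected, row and injection cannot be told apart.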

Additional observations from a re-analysis of the deposited data

How the results depend on the processing

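Of 912 differences of single members under alternative settings, 802 kept their sign and side of the threshold, 31 passed it newly and 21 lost it. The other 58 changed sign, none past the threshold in either setting (lowest adjusted p 0.20, values from -1.02 to 0.36). In IRI against sham, where 1 of 8 members was called, 2 were called with normexp and with probes above background on all arrays, 0 with the slide column as a covariate, 3 with only the 2 groups in the fit and 3 with array weights, 1 of these a rise of Fdft1. Of all genes, 21.1%, 20.9%, 3.84%, 31.9% and 37.6% were called in these settings, so the member counts stand near these shares. In control-miRNA against sham, with 2 called, the slide column left 0 (3.23% of all genes), and only the 2 groups gave 3 (20.2%). In mimic against sham, with 3 called, median scaling gave 4 (27.6%), only the 2 groups 2 (14.2%), normexp 1 (37.5%) and array brightness as a covariate 0 (0.588%). In mimic against IRI, with 0 called, 2 were called with normexp (48.5% of all genes), 1 with quantile normalization (10.8%), 3 with median scaling (31.6%), 1 with probes above background on all arrays (24.1%), 1 with the mean of a gene's probes (14.2%) and 1 with the authors' series table (10.8%). Leaving out 1 array at a time gave 0 to 3 called in IRI against sham, 0 to 3 in control-miRNA against sham, 1 to 4 in mimic against sham, 0 in control-miRNA against IRI, 0 to 3 in mimic against IRI and 0 to 1 in mimic against control-miRNA. In the fits with 1 array left out, the counts over all genes moved as well, as given below, so the member counts are not a trait of the members. The cause was not tested. Where an array was left out, the lone mouse of its group was assumed to vary like the other groups.

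The called genes of the other pathway lists kept their sign in each setting except Rnf139 in mimic against IRI, which stood at 0.058 with array brightness as a covariate. The counts over all genes moved more. They follow for IRI, control-miRNA and mimic against sham, then control-miRNA and mimic against IRI, then mimic against control-miRNA. Against the 3887, 3691, 5937, 0, 3284 and 0 called, in the order of the preceding sentence, the other settings gave 816 to 8005, 686 to 6081, 125 to 7965, 0 to 1, 0 to 11850 and 0 to 5869, and leaving out 1 array gave 799 to 5939, 696 to 5699, 1098 to 7292, 0, 0 to 7514 and 0 to 6318. Median scaling changed the split of calls to 2424 higher and 1319 lower from 2013 and 1874 in IRI against sham, to 1730 and 4145 from 3173 and 2764 in mimic against sham, and to 1063 and 5668 from 2095 and 1189 in mimic against IRI, where quantile normalization gave 1185 and 1106. No paired analysis was possible because each array came from a different mouse and each mouse belonged to 1 group. With 2 mice in a group and dim signals for Insig1 and Dhcr7, moderate changes of these genes could go unseen.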
